A study of Mus musculus with 6 samples.

Results

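The collagen chain genes were examined as 1 family, taken as every probe set of the array whose only annotated symbol was that of a collagen alpha chain (Col, a type number, a and a chain number). The array carried 82 such probe sets for 42 genes, out of 45037 probe sets and 18193 singly named genes. The study profiled immortalized mouse embryonic fibroblasts (MEFs), all lacking PCAF (gene Kat2b) and carrying a conditional allele of GCN5 (gene Kat2a); both proteins are histone acetyltransferases with partly redundant functions. PCAF-/-;GCN5+/- cells (3 arrays) and PCAF-/-;GCN5-/- cells (3 arrays) are the groups, and the design text describes infection with a retrovirus carrying vector alone or Cre recombinase, followed by puromycin selection. Line A gave duplicate RNAs of each genotype, here named A1 and A2, and the independently immortalized line B gave 1 RNA of each. No array came from a cell with intact PCAF, and the labels do not say which virus each array received. The values were read as log2 signals, so a difference of 1 is a 2-fold change, and "called" means an adjusted p under 0.05 with limma, Benjamini-Hochberg adjusted over 27022 probe sets. Only probe sets with a mean log2 signal of at least 6.80 were tested, which left 31 collagen genes (50 probe sets), each gene represented by its brightest probe set.

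Collagens are the main structural proteins of connective tissue, and each molecule is a triple helix of alpha chains encoded by separate genes. Fibrillar collagens (types I, II, III, V and XI) build the banded fibrils, FACIT collagens such as types XII and XIV decorate fibril surfaces, type IV forms the network of basement membranes, and type VI forms beaded filaments around cells. Fibroblasts are the principal producers of types I, III, V and VI, whereas types II, IX, X and XI are best known from cartilage.

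The array medians lay between 7.40 and 7.45, so no array stood apart in its general level. The targeted gene Kat2a was represented by 3 probe sets. At 1422972_s_at it read 9.31, 10.07 and 11.51 in GCN5+/- (A1, A2, B) against 7.97, 7.85 and 7.75 in GCN5-/-, and fell by 2.44 ± 0.37 (SE; limma adjusted p = 0.00864). At 1422971_at it fell by 0.75 ± 0.13 (limma adjusted p = 0.0157), whereas the brightest, 1426783_at, differed by 0.18 ± 0.16 (limma adjusted p = 0.575): it rose within line A, by 0.47 ± 0.09 (limma adjusted p = 0.0232), and was lower in the line B pair by 0.41. Which part of the transcript each probe set reads relative to the deleted part was not given in the sources used here. All 3 Kat2b probe sets lay below the level filter on average. In these bulk RNAs, fewer cells making a collagen and less collagen RNA per cell cannot be told apart.

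Collagen RNA was lower in GCN5-/- cells for a minority of the family, and no tested member was called higher. By brightest probe set, 7 of 31 tested genes fell, 0 rose and 24 were not called, against 4.77% of all tested genes called lower and 5.09% called higher. The 7 were Col1a1, Col3a1, Col5a1 and Col11a1 among the fibrillar chains, Col14a1 among the FACITs, and Col6a1 and Col6a2 of type VI. At an unadjusted p under 0.05 the same fit gave 12 lower and 2 higher (Col5a3 and Col7a1), against 26.7% of all genes in either direction. The fitted differences had a median of -0.12 over the 31 genes, against 0.01 over all genes tested. By pairs, 14 of the 31 read lower in GCN5-/- in A1, A2 and B alike (24.1% of all genes tested) and 5 read higher in all 3 pairs (25.5%). When any tested probe set was allowed to count, Col1a2 and Col5a2 joined and 9 genes were called lower (5.70% of all genes tested). Over probe sets, 15 of 50 were called lower (4.31% of all probe sets tested). The count rested on modelling the lines: it was 0 without a line term, 1 (Col1a1) with line as a random block, 4 with the line A duplicates averaged and 4 without an intensity trend in the variance. With the duplicates averaged, 3 of the 7 stayed called (Col1a1, Col11a1 and Col14a1) and Col6a3 was added. Col3a1, Col5a1, Col6a1 and Col6a2 were then not called (limma adjusted p = 0.207, 0.0932, 0.0838 and 0.0897). Leaving out 1 array gave 4 without GCN5+/- A1 or GCN5-/- A2, and 11 without either line B array (9 lower and 2 higher, 6 of them among the 7).

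**Figure D1:**
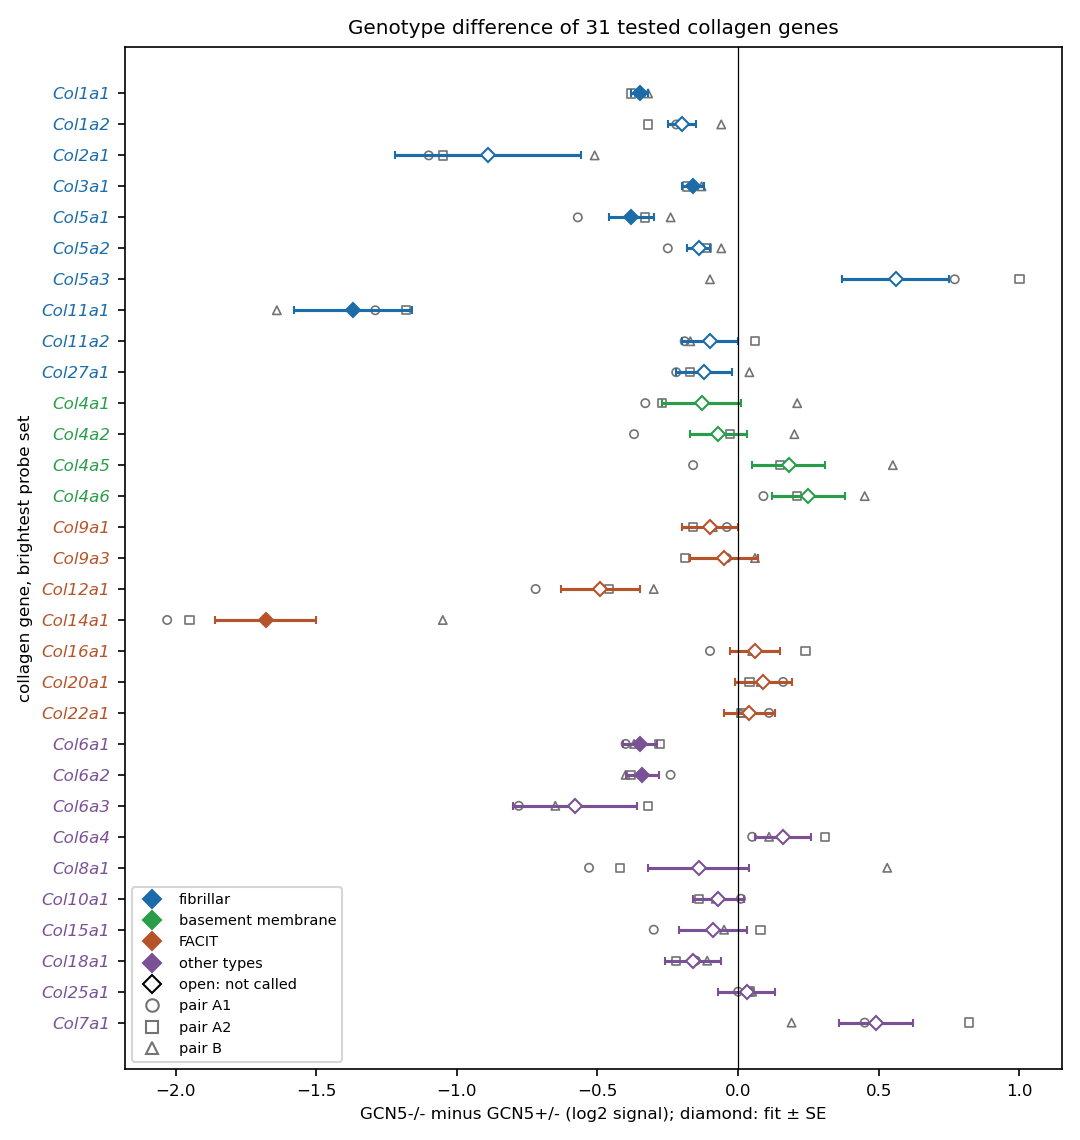
Genotype difference (GCN5-/- minus GCN5+/-, log2 signal, x axis) for the brightest probe set of the 31 tested collagen genes, grouped by type. Diamonds are the limma estimate with its standard error, filled where called, and open grey symbols are the 3 matched pairs. Col14a1 (-1.68) and Col11a1 (-1.37) lie farthest to the left, and no filled diamond lies to the right of 0.

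Among the fibrillar chains, 4 of 10 tested genes fell (4.77% of all genes) and 0 rose (5.09%), with a median difference of -0.18. Of the 10, 7 were lower in all 3 pairs (24.1% of all genes). The most abundant fibroblast collagen, type I, is a heterotrimer of Col1a1 and Col1a2. Col1a1 read 14.71, 14.73 and 14.46 in GCN5+/- and 14.36, 14.35 and 14.14 in GCN5-/-, always in the order A1, A2, B. Every GCN5-/- array was below every GCN5+/- array. The difference was -0.35 ± 0.03 (SE; limma adjusted p = 0.000666), a ratio of 0.784, and it was called with any 1 array left out. At its second probe set Col1a1 fell by 0.45 ± 0.11 (limma adjusted p = 0.0445).

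Col1a2, the partner chain, read 14.89, 14.84 and 14.70 in GCN5+/- and 14.66, 14.52 and 14.64 in GCN5-/- at its brightest probe set. The groups did not overlap, but the line B pair differed by only -0.06, and the fitted difference of -0.20 ± 0.05 was not called (limma adjusted p = 0.0550). Both dimmer probe sets of Col1a2 were called, at -0.31 ± 0.06 (1423110_at; limma adjusted p = 0.0155) and -0.75 ± 0.18 (1446326_at; limma adjusted p = 0.0390). The brightest probe set of Col1a1 lay between the 99.6th and 99.9th percentile of signal on each array, and 1446326_at of Col1a2 between the 78.8th and 90.8th. Whether saturation affects the differences of the brightest sets was not tested.

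Type III collagen is a homotrimer of Col3a1 that co-assembles with type I. Col3a1 read 14.28, 14.37 and 14.09 in GCN5+/- and 14.12, 14.19 and 13.95 in GCN5-/-. The GCN5-/- array was lower in each pair, but the genotypes overlapped across lines. The difference of -0.16 ± 0.04 was the smallest of the 7 and passed narrowly (limma adjusted p = 0.0473). It was not called with any of the 6 arrays left out, where adjusted p ran from 0.0525 to 0.151, and its second probe set gave -0.22 ± 0.09 (limma adjusted p = 0.175).

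Types V and XI are the minor fibrillar collagens that sit within type I and type II fibrils and limit their diameter. Col5a1 read 13.42, 13.17 and 12.88 in GCN5+/- and 12.85, 12.84 and 12.63 in GCN5-/-. It fell by 0.38 ± 0.08 (limma adjusted p = 0.0226), and its other 2 probe sets were also called, at -0.41 ± 0.10 and -0.53 ± 0.11 (limma adjusted p = 0.0367 and 0.0251). The GCN5-/- arrays all lay below the GCN5+/- arrays. The brightest set was no longer called without GCN5+/- A1, GCN5-/- A1 or GCN5-/- A2 (limma adjusted p = 0.0659, 0.0743 and 0.101).

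Col5a2, the partner of Col5a1, read 14.21, 14.13 and 13.70 in GCN5+/- and 13.96, 14.02 and 13.63 in GCN5-/-, a difference of -0.14 ± 0.04 (limma adjusted p = 0.0891). At 1450625_at the same gene read 11.44, 11.27 and 10.43 against 10.76, 11.10 and 9.98 and was called at -0.44 ± 0.11 (limma adjusted p = 0.0443). Its probe sets therefore gave different calls with the same sign. Col5a3, the rarer chain of type V, was the only fibrillar gene with a positive estimate. It read 8.68, 8.42 and 9.65 in GCN5+/- and 9.46, 9.42 and 9.55 in GCN5-/-, so it was higher in both line A pairs and 0.10 lower in line B; the joint estimate was 0.56 ± 0.19 (limma adjusted p = 0.119).

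Col11a1, a chain of type XI, showed the largest fibrillar difference. It read 11.14, 10.48 and 9.80 in GCN5+/- and 9.85, 9.30 and 8.17 in GCN5-/-. All 3 pairs fell by more than 1 log2 unit, although the highest GCN5-/- array (line A) overlapped the lowest GCN5+/- array (line B). The difference was -1.37 ± 0.21 (limma adjusted p = 0.00812), a ratio of 0.387, and the second probe set gave -1.31 ± 0.14 (limma adjusted p = 0.00167). The call held with any 1 array left out.

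Col2a1, the chain of type II cartilage collagen, read 11.36, 10.27 and 8.10 in GCN5+/- and 10.25, 9.22 and 7.59 in GCN5-/-. It was lower in each pair, by 1.10, 1.05 and 0.51, but the line A duplicates differed by as much as the genotypes did (1.08 in GCN5+/- and 1.03 in GCN5-/-). The difference of -0.89 ± 0.33 was not called (limma adjusted p = 0.142). With the replicate number as a block it was called (limma adjusted p = 0.0124). Col11a2 and Col27a1 differed by -0.10 ± 0.10 and -0.12 ± 0.10 and were not called.

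**Figure D2:**
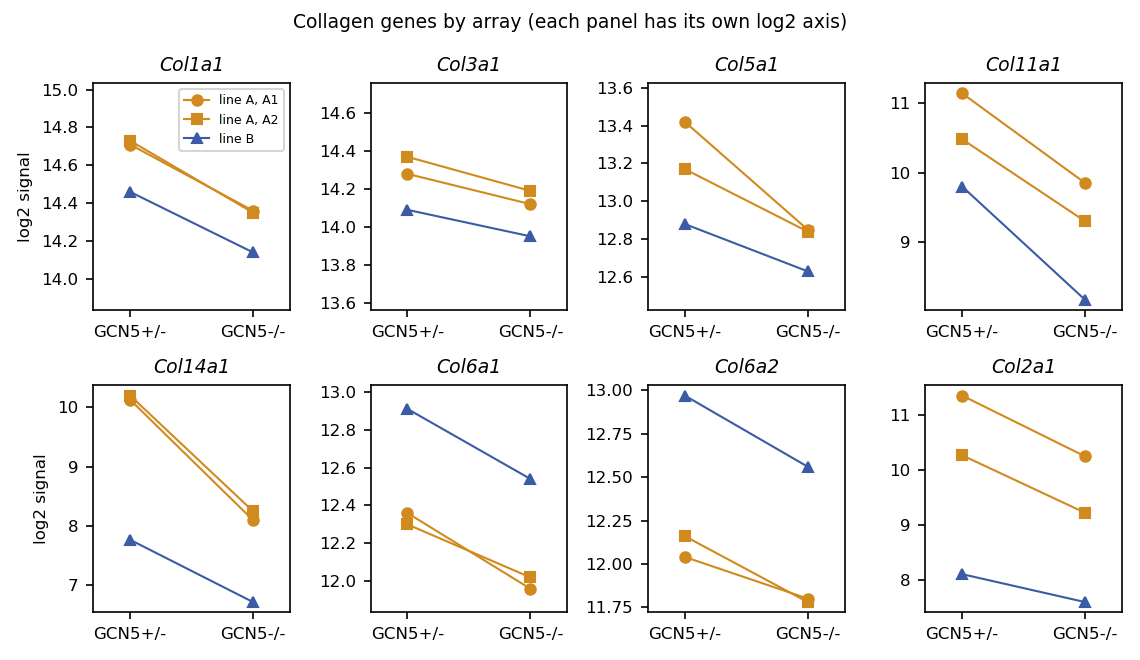
Log2 signal (y axis, a separate scale in each panel) of 8 collagen genes on the 6 arrays, with GCN5+/- at left and GCN5-/- at right and lines joining the matched arrays. Each line slopes downward; line B (triangles) lies above line A for Col6a1 and Col6a2 and below it for Col1a1, Col3a1, Col5a1, Col11a1, Col14a1 and Col2a1.

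Promoters are shown for members called lower by any probe set, so that their sequences can be compared; printed are those with 1 window in the table that held 150 bases before the most upstream start. Col1a1, Col5a2, Col6a2 and Col14a1 are therefore named only, and Col1a2 is included by its dimmer probe sets. RefSeq promoter windows (assembly GRCm38.p6) were matched for 33 of the 42 genes. Each sequence below is the 150 bases that end before the annotated start, in the sense of the gene, 5′ to 3′, and capitals mark a CCAAT box, a TATAAA box or a GGGCGG box on either strand.
Col1a2, chr6:4505468-4505617, plus strand: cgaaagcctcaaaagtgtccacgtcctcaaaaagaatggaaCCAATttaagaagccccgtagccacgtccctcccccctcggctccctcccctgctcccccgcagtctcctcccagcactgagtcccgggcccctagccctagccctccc
Col3a1, chr1:45311388-45311537, plus strand: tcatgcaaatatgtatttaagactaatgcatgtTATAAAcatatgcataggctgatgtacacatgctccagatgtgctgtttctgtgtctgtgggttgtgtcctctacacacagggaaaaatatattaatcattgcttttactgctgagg
Col5a1, chr2:27886231-27886380, plus strand: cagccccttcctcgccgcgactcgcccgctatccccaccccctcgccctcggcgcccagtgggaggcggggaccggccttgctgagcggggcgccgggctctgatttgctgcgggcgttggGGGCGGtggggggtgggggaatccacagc
Col11a1, chr3:114030329-114030478, plus strand: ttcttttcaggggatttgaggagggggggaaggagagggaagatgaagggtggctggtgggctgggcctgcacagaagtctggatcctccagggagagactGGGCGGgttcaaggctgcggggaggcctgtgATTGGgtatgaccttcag
Col6a1, chr10:76726045-76726194, minus strand: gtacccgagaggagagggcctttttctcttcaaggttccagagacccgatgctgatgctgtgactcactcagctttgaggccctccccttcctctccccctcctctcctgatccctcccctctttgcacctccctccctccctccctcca

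The printed windows shared no single motif. Col1a2 and Col11a1 held a CCAAT box, on the given and the other strand respectively, Col3a1 held a TATAAA box, Col5a1 and Col11a1 held a GGGCGG box, and Col6a1 held none of the searched motifs. Their base composition ran from 37.3% G or C in Col3a1 to 76.0% in Col5a1. In the full 250 bases before the start, CCAAT occurred in 13 of 33 collagen genes (39.4%; 33.8% of all 32851 windows), TATAAA in 5 (15.2%; 12.4%) and GGGCGG in 20 (60.6%; 32.7%). A collagen gene was counted if any of its windows held the motif (36 windows for 33 genes), whereas the comparison share is per window. The motif counts are a description of the sequence and not of binding. In the RefSeq gene order, 2 couples of fibroblast chains are direct neighbours with no protein-coding gene between them, Col3a1 with Col5a2 and Col6a1 with Col6a2, as are the type IV couples Col4a1 with Col4a2 and Col4a5 with Col4a6.

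Of the 7 tested FACIT genes 1 fell (4.77% of all genes), 0 rose (5.09%), and the median was -0.05. Col14a1, which encodes the fibril-associated chain of type XIV, read 10.13, 10.20 and 7.77 in GCN5+/- and 8.10, 8.25 and 6.72 in GCN5-/-. In line A the duplicates were close and the genotypes far apart, and the line B pair differed in the same direction from a lower start. The GCN5-/- line B array lay below the level filter. The difference was -1.68 ± 0.18 (limma adjusted p = 0.00194), a ratio of 0.313 and the largest of the tested collagens. Its second tested probe set gave -1.44 ± 0.19 (limma adjusted p = 0.00469), and the call held with any 1 array left out.

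Col12a1, the chain of type XII and the closest relative of Col14a1 in domain make-up, read 10.36, 9.91 and 8.55 in GCN5+/- and 9.64, 9.45 and 8.26 in GCN5-/-. It was lower in each pair, but -0.49 ± 0.14 was not called (limma adjusted p = 0.0701) unless the replicate number was a block (limma adjusted p = 0.0359). The remaining tested FACITs, Col9a1, Col9a3, Col16a1, Col20a1 and Col22a1, had estimates between -0.10 and 0.09. None of those 5 was called.

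Of the 4 tested type VI genes, 2 fell (4.77% of all genes) and 0 rose (5.09%), with a median of -0.35. Col6a1, Col6a2 and Col6a3 encode the chains of the common type VI heterotrimer. Col6a1 read 12.36, 12.30 and 12.91 in GCN5+/- and 11.96, 12.02 and 12.54 in GCN5-/-. Its difference was -0.35 ± 0.06 (limma adjusted p = 0.0104), and it was not called without GCN5+/- A1 (limma adjusted p = 0.0649). Col6a2 read 12.04, 12.16 and 12.97 in GCN5+/- and 11.80, 11.78 and 12.56 in GCN5-/-. Within each line the genotypes of both chains did not overlap, whereas across lines they did, because line B was higher. Col6a2 fell by 0.34 ± 0.06 (limma adjusted p = 0.0159), and it was not called without GCN5+/- A2 or GCN5-/- A2 (limma adjusted p = 0.0657 and 0.0719); its second probe set gave -0.37 ± 0.10 (limma adjusted p = 0.0677).

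Col6a3, which encodes the longest of these chains, read 10.78, 9.88 and 11.34 in GCN5+/- and 10.00, 9.56 and 10.69 in GCN5-/-. The duplicates of GCN5+/- line A differed by 0.90, more than the genotypes did. The difference of -0.58 ± 0.22 was not called (limma adjusted p = 0.146). It was called with the replicate number as a block (limma adjusted p = 0.0234), with the duplicates averaged (limma adjusted p = 0.0491) and without GCN5+/- A2 (limma adjusted p = 0.0356). Col6a4, an alternative to Col6a3 in the trimer, gave 0.16 ± 0.10.

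Basement membrane chains gave no genotype call. At the brightest probe sets, 0 of 4 tested type IV genes were called in either direction with limma (9.86% of all genes). At an unadjusted p under 0.05 the count was also 0 (26.7% of all genes), and the median difference was 0.06. Col4a1, which with Col4a2 forms the widespread type IV heterotrimer, read 12.98, 12.60 and 13.05 in GCN5+/- and 12.65, 12.34 and 13.26 in GCN5-/-. Both line A pairs were lower and the line B pair was higher by 0.21, so the fitted difference was -0.13 ± 0.14 (limma adjusted p = 0.638). Col4a2 read 12.81, 12.55 and 12.83 in GCN5+/- and 12.45, 12.52 and 13.03 in GCN5-/-, a difference of -0.07 ± 0.10 (limma adjusted p = 0.749). Both estimates changed sign without GCN5+/- A1, to 0.03 and 0.05. Col4a5 and Col4a6, which form the type IV heterotrimers outside the common network, gave 0.18 ± 0.13 and 0.25 ± 0.13 and were not called; whether type IV differed from the fibrillar genes as a group was not tested.

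Among the remaining types, no tested gene was called by the joint estimate. Col8a1, a short-chain collagen of the vessel wall and of Descemet's membrane, differed in opposite directions in the 2 lines. It read 13.20, 13.32 and 12.19 in GCN5+/- and 12.67, 12.90 and 12.72 in GCN5-/-. Col7a1, which forms the anchoring fibrils of skin, read 9.52, 9.20 and 9.70 in GCN5+/- and 9.97, 10.02 and 9.89 in GCN5-/-. It was higher in each pair, but 0.49 ± 0.13 was not called (limma adjusted p = 0.0583). Col18a1, the source of endostatin, gave -0.16 ± 0.10, and Col10a1, Col15a1 and Col25a1 lay between -0.09 and 0.03.

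The 11 genes not tested lay below the level filter and are given by the range of their brightest probe set over the 6 arrays. The fibrillar Col24a1 lay between 3.58 and 3.90. Of the chains of the kidney filter's type IV collagen, Col4a3 lay between 6.17 and 6.59 and Col4a4 between 5.41 and 5.63. The FACITs Col9a2 and Col19a1 lay between 5.66 and 5.92 and between 5.71 and 5.95. Col6a5 lay between 4.23 and 4.46, Col8a2 between 4.93 and 5.99, and Col26a1 between 4.85 and 5.07. The transmembrane chains Col13a1, Col17a1 and Col23a1 lay between 5.74 and 5.88, 5.08 and 5.66, and 6.54 and 6.83. These signals bound the RNA only from above and do not show absence. Within this range Col8a2 was highest on both GCN5+/- line A arrays (5.44 and 5.99), and so was a dimmer probe set of Col19a1 (1421698_a_at; 6.12 and 6.33, against 4.48 to 4.72 on the other 4 arrays); neither was tested, both were singled out after their values were seen, and the other 2 Col19a1 probe sets did not show a separation of that size.

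The genotype difference was next examined within each line. Within line A, 9 collagen genes were called lower (5.06% of all genes) and 2 higher (5.77%). Relative to the joint estimate, Col1a2 (-0.27 ± 0.05; limma adjusted p = 0.0131), Col5a2 (-0.18 ± 0.04; limma adjusted p = 0.0444) and Col8a1 (-0.48 ± 0.08; limma adjusted p = 0.0144) were added, and Col3a1 was no longer called (limma adjusted p = 0.0541). The 2 that rose were Col5a3 (0.89 ± 0.14; limma adjusted p = 0.00872) and Col7a1 (0.63 ± 0.14; limma adjusted p = 0.0319). These calls compare duplicate RNAs of 1 line. Line B had 1 array per genotype and gave differences with no test of its own. The largest falls there were -1.64 for Col11a1, -1.05 for Col14a1, -0.65 for Col6a3 and -0.51 for Col2a1. The largest rises were 0.55 for Col4a5, 0.53 for Col8a1 and 0.45 for Col4a6. Col1a1 differed by -0.32.

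A test of whether the genotype difference in line B differed from that in line A called 0 collagen genes with limma, against 0.0396% of all genes. At an unadjusted p under 0.05 it gave 6 (Col1a2, Col5a3, Col4a2, Col4a5, Col14a1 and Col8a1), against 9.64% of all genes. Col8a1 had the lowest adjusted p of the 31 genes (limma adjusted p = 0.0925), and its other 2 probe sets gave 0.82 ± 0.11 and 0.95 ± 0.28 (limma adjusted p = 0.0871 and 0.409). Col14a1 fell less in line B, with a term of 0.94 ± 0.22, and Col5a3 gave -0.99 ± 0.23, both uncalled (limma adjusted p = 0.280 and 0.283). Col14a1 read 6.72 on the GCN5-/- line B array, below the level filter. Whether low signal limited its line B difference was not tested. In 4 genes (Col5a3, Col27a1, Col4a2 and Col8a1) the line A arrays were separated by genotype and the line B pair was opposite in sign, a pattern of 16.4% of all genes. Only the duplicates of line A supplied the residual spread of this test (2 degrees of freedom).

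**Figure D3:**
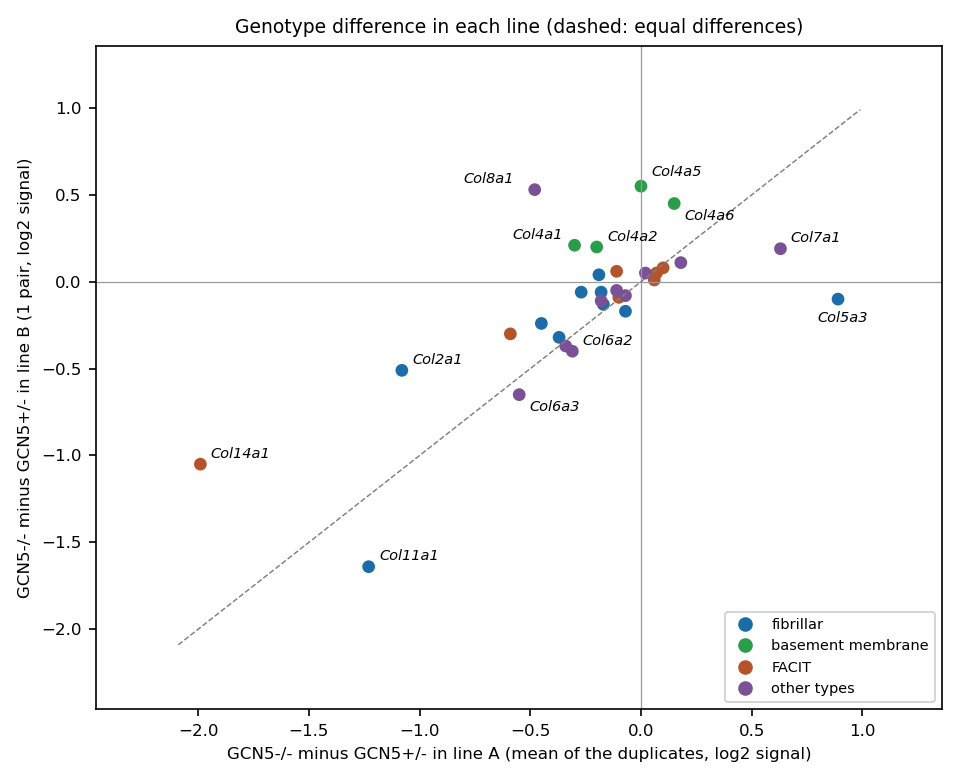
Genotype difference in line A (mean of the duplicates, x axis) against that in line B (1 pair, y axis), both in log2 signal, for the 31 tested collagen genes; the dashed line marks equal differences. Col11a1 and Col14a1 lie at the lower left, while Col8a1 (-0.48 in line A, 0.53 in line B) and Col5a3 (0.89 and -0.10) lie on opposite sides of 0 in the 2 lines.

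The lines also differed in their collagens. In line B, 14 of 31 tested genes were called different (26.7% of all genes), 8 lower (13.5%) and 6 higher (13.2%). All 6 called fibrillar genes and both called FACITs were lower in line B, whereas all 6 called genes of type IV, type VI and type XVIII were higher; whether the types differed as groups was not tested. For 6 genes both line B arrays lay above all line A arrays (21.2% of all genes) and for 7 below them (18.7%). Because each line was immortalized once, a difference between lines cannot be told apart from one between embryos or cultures, and p-values measure only the spread between these RNAs. Without an intensity trend in the variance the count was 9.

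A called line difference of at least 1 log2 unit was found for 4 collagen genes (4.69% of all genes), all lower in line B. Col2a1 stood at 8.10 and 7.59 in line B and between 9.22 and 11.36 in line A, a difference of -2.43 ± 0.35 (limma adjusted p = 0.00200). Col14a1 differed by -1.93 ± 0.19 (limma adjusted p = 0.000342) and Col12a1 by -1.44 ± 0.15 (limma adjusted p = 0.000397). For these 3 genes the lines did not overlap in either genotype. The second tested probe set of Col12a1 was called at -0.81 ± 0.13 (limma adjusted p = 0.00294), under 1 log2 unit. That of Col14a1 was called at -1.44 ± 0.20 (limma adjusted p = 0.00164). Col11a1 differed by -1.21 ± 0.22 (limma adjusted p = 0.00584), a call that was lost without GCN5-/- B (limma adjusted p = 0.0626). The other called fibrillar chains had smaller line differences: -0.42 ± 0.05 for Col5a2, -0.32 ± 0.08 for Col5a1, -0.23 ± 0.03 for Col1a1 and -0.22 ± 0.04 for Col3a1. At its other probe set Col5a2 was called at -0.94 ± 0.11 (limma adjusted p = 0.000874). The other probe sets of the rest were not called between lines. They gave -0.13 ± 0.12 for Col1a1, -0.26 ± 0.10 for Col3a1, and -0.25 ± 0.10 and -0.29 ± 0.12 for Col5a1 (limma adjusted p = 0.493, 0.0928, 0.120 and 0.112). Col1a2 gave -0.05 ± 0.06 and was not called.

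The common type VI chains had the opposite sign between the lines to the called fibrillar chains. Col6a3 was higher in line B by 0.96 ± 0.23, Col6a2 by 0.82 ± 0.07 and Col6a1 by 0.57 ± 0.06 (limma adjusted p = 0.0196, 0.000103 and 0.000446). The fourth tested type VI gene, Col6a4, gave -0.26 ± 0.10, with both line B arrays below all line A arrays, and was not called (limma adjusted p = 0.103). Col18a1 was higher by 0.75 ± 0.10 (limma adjusted p = 0.00161), Col4a1 by 0.51 ± 0.15 and Col4a2 by 0.35 ± 0.11 (limma adjusted p = 0.0407 and 0.0463). The 7 genes that fell with genotype were all called between lines as well, and there the type VI chains had the opposite sign to the other 5. Col6a1 and Col6a2 were thus lower in GCN5-/- in both lines, from a higher level in line B. How many of all genes were called for both was not counted, and both estimates share the residual spread of the same fit. The other probe sets of Col1a1, Col3a1 and Col5a1 gave no line call.

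**Figure D4:**
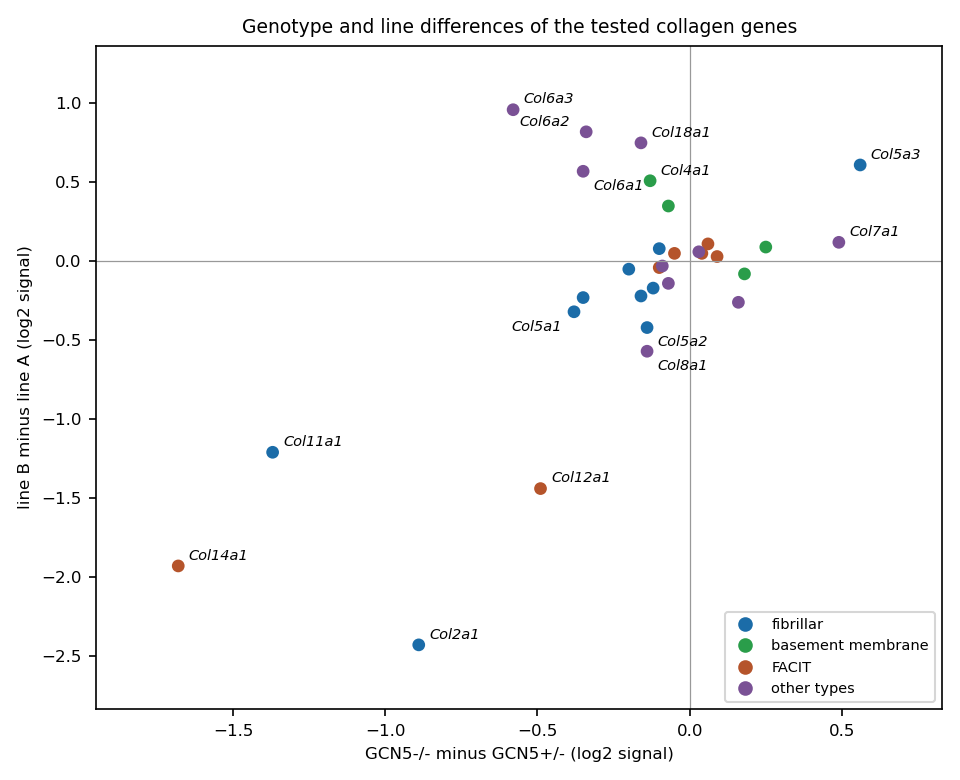
Genotype difference (x axis) against line difference (y axis), both limma estimates in log2 signal, for the 31 tested collagen genes coloured by type. Col14a1, Col11a1, Col2a1 and Col12a1 lie low on both axes, whereas Col6a1, Col6a2 and Col6a3 are to the left of 0 and above it.

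Genes that act on collagen chains were described from lists drawn up for this family. Of 17 tested genes for chain modification and folding (19 listed), 2 fell (4.77% of all genes) and 0 rose (5.09%) in GCN5-/-, with a median of -0.08. P3h1, a prolyl 3-hydroxylase of fibrillar chains, read 11.09, 11.21 and 10.48 in GCN5+/- and 10.44, 10.24 and 9.98 in GCN5-/- and fell by 0.70 ± 0.10 (limma adjusted p = 0.00774). Serpinh1, the collagen chaperone HSP47, fell by 0.22 ± 0.04 (limma adjusted p = 0.0138). Between lines, 0 of the 17 were higher in line B (13.2% of all genes) and 7 were lower (13.5%), the largest being P4ha3, a prolyl 4-hydroxylase subunit, at -2.11 ± 0.17 (limma adjusted p = 9.57e-05).

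Of 11 tested genes for export, propeptide removal and cross-linking (17 listed), 1 fell (4.77% of all genes) and 2 rose (5.09%), with a median of -0.11. Sec23a, a coat protein of the vesicles that export procollagen, fell by 0.45 ± 0.09 (limma adjusted p = 0.0195). Pcolce2, an enhancer of C-propeptide removal, read 10.04, 9.86 and 8.99 in GCN5+/- and 11.32, 10.58 and 11.44 in GCN5-/- and rose by 1.48 ± 0.30 (limma adjusted p = 0.0229). Loxl4, a lysyl oxidase family member, rose by 0.57 ± 0.08 (limma adjusted p = 0.00714). Lox itself, the main cross-linking enzyme, differed by -0.11 ± 0.06 and was not called.

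Of 7 tested receptors (10 listed), 1 fell (4.77% of all genes) and 0 rose (5.09%), with a median of 0.00. Itga1, the alpha chain of a collagen-binding integrin, read 8.80, 8.93 and 6.43 in GCN5+/- and 7.71, 8.03 and 6.06 in GCN5-/- and fell by 0.79 ± 0.15 (limma adjusted p = 0.0206). Both line B values of Itga1 lay below the filter, so that it was tested only through line A. Of 6 tested collagen-cleaving proteases (8 listed), 1 fell (4.77% of all genes) and 0 rose (5.09%), with a median of -0.22. Mmp14, a membrane-bound collagenase, read 12.81, 12.94 and 12.83 in GCN5+/- and 12.21, 11.61 and 12.10 in GCN5-/-, without overlap, and fell by 0.89 ± 0.14 (limma adjusted p = 0.00958). Mmp13, another collagenase, ran from 4.97 to 9.27 over the arrays, and its 1.86 ± 0.64 was not called (limma adjusted p = 0.118).

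The fibroblast label was checked against 10 markers, all above the filter on average. Vim lay between 14.65 and 14.84 on every array. Beside the collagens, 3 of the 10 fell in GCN5-/- (4.77% of all genes) and 0 rose (5.09%). Those that fell were Pdgfra by 0.52 ± 0.13, Pdgfrb by 0.63 ± 0.12 and Dcn by 0.73 ± 0.16 (limma adjusted p = 0.0487, 0.0187 and 0.0349). At an unadjusted p under 0.05 the same fit gave 4 lower and 1 higher, against 26.7% of all genes in either direction. The higher one was S100a4, which rose in each pair, by 0.34, 0.50 and 0.27. Its 0.37 ± 0.11 was not called (limma adjusted p = 0.0763). The summed level of the list, the log2 of its signals added on the linear scale, ranged from 16.46 to 16.54 in GCN5+/-. In GCN5-/- it ranged from 16.47 to 16.51. The brightest markers, Vim, Fn1 and S100a4, weigh most in this sum, so it says little about dimmer ones. Between lines, 3 of the 10 were called higher in line B (13.2% of all genes) and 4 lower (13.5%), among them Pdgfra at -1.91 ± 0.14 (limma adjusted p = 6.21e-05). Thy1 read 9.54 and 8.60 in line B and 6.02 to 6.21 in line A, below the filter there, so that it was tested only through line B. Of 8 chondrocyte markers 4 were tested and 0 were called for genotype or line, with summed levels of 10.42 to 10.64 in GCN5+/- and 10.34 to 10.54 in GCN5-/-. The 4 were Sox9 (8.87 to 9.36), Matn3 (8.01 to 8.88), Matn4 (7.19 to 7.61) and Acan (6.89 to 7.16). The other markers of the list lay below the filter, with Matn1 between 4.33 and 4.42. At an unadjusted p under 0.05 the chondrocyte counts were also 0 (26.7% of all genes for genotype and 38.5% for line).

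For other cell types, 1 of 5 tested smooth muscle markers rose, Cnn1 by 0.46 ± 0.09 (limma adjusted p = 0.0233). So did 1 of 5 tested macrophage and leukocyte markers, Cd53 by 0.85 ± 0.09 (limma adjusted p = 0.00167), against 5.09% of all genes. Called for genotype were 0 of 2 osteoblast, 0 of 1 endothelial and 0 of 3 epithelial markers (1, 0 and 0 at an unadjusted p under 0.05). At that threshold 3 macrophage and leukocyte markers read higher and 0 lower, and 1 smooth muscle marker read higher and 2 lower. Over all genes 26.7% passed that threshold in either direction. Called line differences (line B minus line A) included -1.35 for Csf1r, -1.18 for Cd53, 0.91 for Cd68 and -1.25 for the osteoblast marker Alpl. The summed macrophage and leukocyte level ranged from 10.81 to 11.29 in GCN5+/- and from 11.09 to 11.76 in GCN5-/-, with Ptprc at no more than 4.75 on any array. The summed smooth muscle level ranged from 15.24 to 15.47 and from 15.15 to 15.35. The part of these markers in the collagen differences was not tested.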

How the data were processed

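RNA of 6 cultures (Trizol and an RNeasy kit, per the labels' protocols) was hybridised to Affymetrix arrays. The deposited values were log2 signals, as read from their range of 3.13 to 15.18; log base and normalization are not stated, and the submitters' processing notes name MAS5 for 6 samples and Partek for 1. Genes came from GEO's platform annotation: 34945 probe sets had 1 symbol, 932 several and 9160 none, and 64 control probe sets were left out. The filter was the 40th percentile of mean signal. Genotype and line were fitted on all 6 arrays with limma 3.58.1 (lmFit, eBayes with trend) in R 4.3.3, and a second fit added their product for the within-line and interaction values. The scripts were tested on simulated data.

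Residual degrees of freedom were 3 and 2, so p-values measure mainly the spread between duplicate RNAs. Replicate numbers of A1, A2 and B were taken from the titles. Deviations of same-numbered arrays correlated at 0.714, 0.727 and 0.846 (0.509 and 0.443 between differently numbered line A arrays), so the numbers were taken to pair the arrays. Named were members called by any probe set, the main fibroblast chains, members with a called line difference of at least 1, and called pathway genes; further members are described after their values were seen. Members and lists were chosen with earlier results of these data known. Alternatives covered the line term, normalization, filter, variance trend, probe set choice, replicate block and each array left out. The number of arrays limits the precision.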

Additional observations from a re-analysis of the deposited data

Results flagged for a closer look

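In 4 of 31 tested collagen genes the line A arrays were separated by genotype while the line B pair differed in the opposite direction. Over all genes tested 16.4% had this pattern. The line B differences (GCN5-/- minus GCN5+/-, log2 signal) were 0.53 for Col8a1, 0.20 for Col4a2, 0.04 for Col27a1 and -0.10 for Col5a3. The other probe set of Col27a1 had the same sign in all pairs, at -0.03, -0.08 and -0.32 (A1, A2, B). The line difference was tested by the interaction in limma, and none of the 4 was called; Col8a1 came closest, with an adjusted p of 0.0925 at its brightest probe set and 0.0871 and 0.409 at the other 2. Line B contributed 1 array per genotype to each of these values.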

How the results depend on the processing

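The number of collagen genes called for genotype was 7, all lower, and became 0 without a line term, 1 with line as a random block, 4 with the line A duplicates averaged, 4 without the variance trend, and 4 to 11 with 1 array left out. It stayed within 1.5 times under quantile normalization, median centring, no filter, the 60th percentile filter, robust variance estimation and the probe set of smallest p. A collagen was called higher with the 60th percentile filter (1, beside 8 lower) and without either line B array (2, beside 9 lower). With the replicate block, which pairs A1, A2 and B, 10 were called, all lower, 7 of them shared; Col6a3, Col2a1 and Col12a1 were added and no other call of a brightest collagen probe set changed. The line count of 14 became 9 without the variance trend and 11 to 14 with 1 array left out. The interaction was refitted under quantile normalization, median centring, no filter, the 60th percentile filter and no variance trend, with 0 calls in each. The Col4a2 difference of -0.07 became 0.00 with duplicates averaged and ranged from -0.20 to 0.05 with 1 array left out; Col4a1 ranged from -0.30 to 0.03. The cause was not tested. Of the other single-gene values under the alternatives, 210 kept sign and side of the threshold, 36 lost their call and 10 gained one. With 2 lines, 1 array per genotype in line B and no stated normalization, the data limit statements to these RNAs.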

Other observations

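Probe sets of 1 collagen gene gave differences of unequal size. Of the 8 collagen genes with several tested probe sets and at least 1 called for genotype, the dimmest probe set showed the larger difference in 6, against 41.1% of 859 such genes over the array and 53.9% of the 76 whose brightest set averaged 13 or more. Col1a2 is an example, at -0.20, -0.31 and -0.75 from the brightest to the dimmest set, and Col5a2 another, at -0.14 and -0.44. The pattern was noticed in the data and its cause was not tested.

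By brightest probe set, the line A duplicates differed by more than 0.4 log2 units in the same direction in both genotypes for 3 collagen genes. Col2a1, Col11a1 and, less evenly, Col6a3 read more than 0.4 log2 units higher in A1 than in A2, in GCN5+/- and in GCN5-/- alike, and 0 collagen genes read lower by that margin. Over all tested genes 0.198% read higher and 0.404% lower. The second probe set of Col11a1 had gaps of 0.32 and 0.28, under that margin, and Col6a3 had 0.90 and 0.44. This pattern too was noticed in the data, and its cause was not tested. For Col2a1 the gaps were 1.08 and 1.03, as large as its genotype difference of -0.89.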
